A study of Mus musculus with 4 samples.

Results

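The interferon-stimulated genes described here are 59 genes of the 53379 in the deposited table, chosen by gene symbol from a list of interferon signalling factors and of the IFIT, OAS, MX, IFI, GBP and IRG families. All 59 symbols matched 1 row each. The values come from RNA-seq of Treg cells of the large intestine (LI), sorted as CD3+CD4+YFP+ cells from C57BL/6 mice at steady state, with 2 control and 2 KO libraries. Control mice were *Foxp3*Cre-YFP *Setd2*f/+ and KO mice were *Foxp3*Cre-YFP *Setd2*f/f, so the mice of both groups carried the *Foxp3*-driven Cre-YFP allele, and the controls carried 1 floxed *Setd2* allele as well. Setd2 is the methyltransferase that places trimethylation on lysine 36 of histone H3, and the Cre acts in cells that express *Foxp3*. Each library was a pool of 2 to 3 mice, so error here means pool-to-pool spread. Control and KO mice were littermates, but which pools shared a litter was not given in the sources used here.

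Interferons are secreted proteins that cells release when they sense a virus or when T and NK cells are activated. Type I interferon binds the receptor of *Ifnar1* and *Ifnar2* and acts mainly through a complex of STAT proteins with IRF9, which binds the interferon-stimulated response element (ISRE) in promoters. Interferon gamma acts through STAT dimers that bind the gamma-activated site (GAS). The genes induced include direct antiviral effectors, sensors of viral nucleic acid, and 2 families of GTPases, the guanylate-binding proteins (GBPs) and the immunity-related GTPases (IRGs), which act on the vacuoles of intracellular pathogens and respond strongly to interferon gamma.

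Values are FPKM, a level scaled by gene length, and fold changes are given as KO minus control in log2(FPKM + 1), with the standard error (SE) of the fit. Genes were tested with limma when protein-coding and above a mean of 5 FPKM in either group, which 54 of the 59 members passed among 7639 genes. A gene was called at an unadjusted p below 0.05, the threshold of the study, and p-values adjusted over all 7639 genes are given beside it. Of all genes tested, 8.61% were called higher in KO, 7.57% were called lower in KO, and 0.589% passed an adjusted p of 0.05. With 2 libraries against 2, an exact permutation test of a single value cannot give a p below 0.333, so no such test was used.

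At the 5000 highest ranks the FPKM differed by at most 0.173% between the 4 libraries, while 28426 to 33957 genes were listed at 0. Sequencing depth is therefore unknown, and a shift in total RNA per cell cannot be seen. The Treg markers *Ctla4*, *Il2ra*, *Ikzf2*, *Cd4* and *Cd3e* were at 84.1 to 2310 FPKM in every library, whereas *Foxp3* itself was only at 2.62 to 5.61 FPKM. *Il2ra* was at 184 and 180.4 FPKM in control and 152 and 163 FPKM in KO, and *Ikzf2* at 121 and 116 FPKM in control and 84.1 and 98.4 FPKM in KO, so both were lower in both KO libraries. *Ctla4* went the other way, at 1593 and 1701 FPKM in control and 2160 and 2310 FPKM in KO. *Cd4* and *Cd3e* overlapped between the groups. *Setd2* was at 38.2 and 27.4 FPKM in the control libraries and 26.3 and 36.3 FPKM in the KO libraries (log2 fold change -0.06 ± 0.21, limma adjusted p = 0.927). This value covers the whole gene and not the floxed part alone, so it does not check the genotype. Among markers of other cell types, *Jchain* of plasma cells was at 119 and 160.3 FPKM in control and 112 and 169 FPKM in KO, and *Lyz2* of myeloid cells at 152 and 132 FPKM in control and 128 and 168 FPKM in KO, levels near those of *Cd4*. *Cd8a*, *Ncr1*, *Krt8* and *Vil1* were at 0.35 FPKM or below in every library. Of the 3 markers of plasmacytoid dendritic cells, a main source of type I interferon, *Siglech* was at 0 in control 1 and 2 and at 0.56 and 0.24 FPKM in KO 1 and 2. Their summed level was 27.7 and 34.7 FPKM in control and 49.5 and 48.4 FPKM in KO, most of it *Ccr9*, a gut-homing receptor that T cells express as well. The 5 markers of CD8 T and NK cells summed to 3.68 to 5.57 FPKM and those of myeloid cells to 177 to 222 FPKM (mostly *Lyz2*), with ranges that overlapped between the groups. The epithelial markers summed to 29.0 and 30.9 FPKM in control and 20.2 and 21.4 FPKM in KO (mostly *Epcam*), and the stromal markers to 35.7 and 37.0 FPKM in control and 50.4 and 43.6 FPKM in KO (mostly *Pecam1*). Their part in the results below was not tested. In bulk RNA, fewer cells of a type and less RNA per cell cannot be told apart.

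The interferon-stimulated genes did not move in 1 direction. In KO LI Treg cells, GTPase genes (*Gbp4*, *Gbp2*, *Gbp6*, *Igtp*, *Iigp1*), the surface genes *Ifitm2* and *Ly6a* and the nuclear body gene *Sp100* were higher. Lower were *Stat2*, *Ddx58* and *Trim25*, and none of the 5 IFIT, OAS and MX genes that could be tested was called. Of the 54 members tested, 8 were called higher (14.8%, against 8.61% of all genes) and 3 were called lower (5.56%, against 7.57%), and 43 were not called. Their log2 fold changes lay above 0 for 27 members and below 0 for 27, with a median of 0.007 beside -0.004 over all genes tested. 1 member, *Ifitm2*, passed an adjusted p of 0.05. Both KO libraries lay above both control libraries for 15 members (27.8%, against 24.2% of all genes), both lay below for 11 (20.4%, against 22.9%), and the groups overlapped for 28. The 2 shares of non-overlapping groups were near those of all genes, and whether the share called higher differed from the background was not tested. The median size of a member's log2 fold change was 0.185, beside 0.177 over all genes tested. The median gap between the 2 control libraries was 0.194 for the members and 0.186 over all genes tested. The size and the gap are not on the same footing, because a fold change compares means of 2 libraries and a gap compares single libraries. Without KO 2 fewer members were called, as were fewer of all genes tested, and the median log2 fold change of the members was -0.056.

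**Figure D1:**
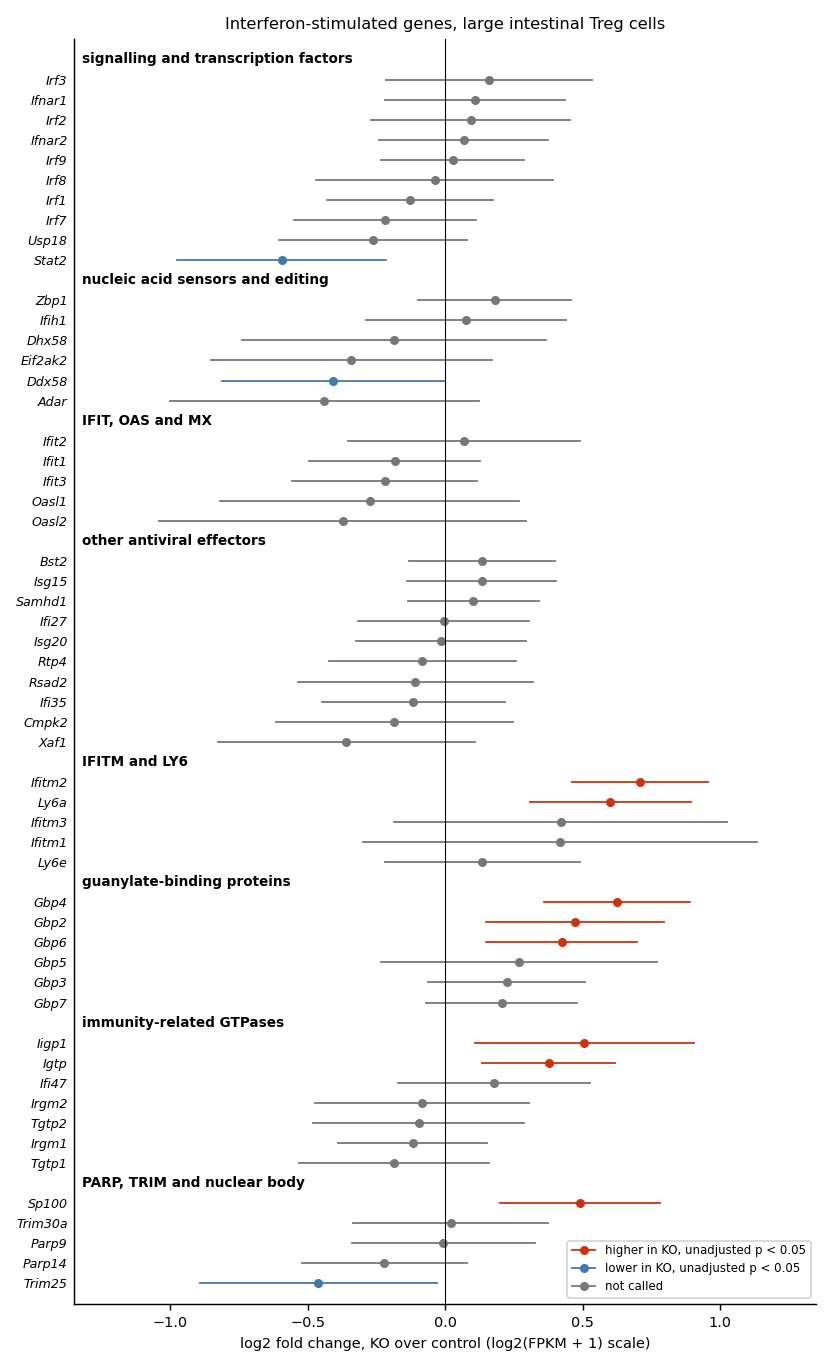
Log2 fold change (KO over control, log2(FPKM + 1) scale, x axis) of the 54 members tested, grouped by role, with the 95% confidence interval of the limma fit as a line. The 8 members called higher are red, the 3 called lower are blue and the 43 not called are grey; 5 of the 8 red points are GTPase genes.

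The GBPs were the group whose members all lay on 1 side. For all 6 genes the KO libraries were both higher than both control libraries, as were 24.2% of all genes, and 3 of the 6 were called higher. The median log2 fold change was 0.345, from 0.21 in *Gbp7* to 0.63 in *Gbp4*. The summed FPKM of the 6 was 508 and 518 in control and 657 and 691 in KO. They lie in 2 clusters of neighbouring paralogs, *Gbp5*, *Gbp7*, *Gbp3* and *Gbp2* on chromosome 3 and *Gbp4* and *Gbp6* on chromosome 5, so they are not independent of each other.

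*Gbp4* (ENSMUSG00000079363, chr5:105115767-105139586, minus strand, GRCm38), which encodes a GBP of the chromosome 5 cluster, was at 77.4 and 81.6 FPKM in control 1 and 2 and 127 and 119 FPKM in KO 1 and 2. The log2 fold change was 0.63 ± 0.11 (limma adjusted p = 0.0719), and it was called in all 4 fits with 1 library left out. Its annotation overlaps *Gbp9* and *Gbp8* on the same strand, at 59.5 to 68.1 and 28.1 to 41.5 FPKM, and 1.64% of its stretches of 100 bases (words) occur in other genes. Its neighbour *Gbp6* (ENSMUSG00000104713, chr5:105270702-105293698, minus strand) had the highest level of the GBPs, 169 and 147 FPKM in control and 208 and 215 FPKM in KO, with no overlap (0.42 ± 0.12, limma adjusted p = 0.162). Of its 100-base words, 64.5% occur in other genes as well, 59.0% in *Gm43302*, which was at 0.57 FPKM or below in every library, so the level of *Gbp6* is uncertain. Without KO 2, *Gbp6* was not called, at a log2 fold change of 0.40.

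On chromosome 3, *Gbp2* (ENSMUSG00000028270, chr3:142620602-142638008, plus strand), a GBP recruited to pathogen vacuoles, was at 77.0 and 81.2 FPKM in control and 98.5 and 123 FPKM in KO (0.47 ± 0.14, limma adjusted p = 0.18). The 2 KO libraries were further apart than the 2 control libraries, and without KO 2 the gene was not called, at 0.31. *Gbp3* was at 89.3 and 104 FPKM in control and 111 and 114 FPKM in KO (0.22 ± 0.12, limma adjusted p = 0.414). It was not called with all libraries but was called without control 2, at 0.33. *Gbp7* was at 89.6 and 97.7 FPKM in control and 104 and 113 FPKM in KO. *Gbp5*, the lowest of the family and an activator of the inflammasome, was at 5.41 and 6.90 FPKM in control and 8.10 and 7.06 FPKM in KO. Neither of the last 2 was called, with 95% confidence intervals of the log2 fold change from -0.07 to 0.48 and from -0.23 to 0.77.

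The promoters of the 4 chromosome 3 genes are shown because they share an ISRE core and lie on 1 side in the expression data. The ISRE core searched was GAAA, any 2 bases, then GAAA, on either strand, and it stands in capitals in stretches of 60 bases from RefSeq promoters (GRCm38.p6), written 5′ to 3′ along the gene. They lie at chr3:142620579-142620638 (*Gbp2*), chr3:142559977-142560036 (*Gbp3*), chr3:142496744-142496803 (*Gbp5*) and chr3:142530258-142530317 (*Gbp7*), all on the plus strand.
Gbp2: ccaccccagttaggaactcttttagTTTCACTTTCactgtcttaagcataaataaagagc
Gbp3: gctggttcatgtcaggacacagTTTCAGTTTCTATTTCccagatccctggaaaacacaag
Gbp5: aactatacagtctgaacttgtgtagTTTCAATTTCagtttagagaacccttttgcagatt
Gbp7: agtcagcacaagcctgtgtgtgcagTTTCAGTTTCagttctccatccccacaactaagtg
*Gbp3* has 2 overlapping cores. The match in *Gbp5* begins 165 bases before the start, further away than those of *Gbp2* at 59, *Gbp7* at 53 and *Gbp3* at 45 bases. The called genes without a promoter entry were *Gbp4*, *Gbp6*, *Iigp1* and *Ly6a*.

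The IRGs split. Of the 7 genes, 2 were called higher, *Igtp* and *Iigp1* (28.6%, against 8.61% of all genes). The groups overlapped for the other 5, with a median log2 fold change over the 7 of -0.084. *Igtp* (ENSMUSG00000078853, chr11:58199556-58207591, plus strand), also known as Irgm3, a regulatory IRG that protects host membranes from the other IRGs, was the most abundant of the GTPases. It was at 499.9 and 529.6 FPKM in control and 664 and 672 FPKM in KO, with no overlap (0.38 ± 0.10, limma adjusted p = 0.162), and was called in all 4 fits with 1 library left out. *Iigp1* (ENSMUSG00000054072), an effector IRG that loads onto vacuoles, was low, at 14.7 and 12.1 FPKM in control and 18.1 and 20.7 FPKM in KO (0.51 ± 0.17, limma adjusted p = 0.222). It was not called without control 2, at 0.38, or without KO 2, at 0.42.

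*Irgm1* and *Irgm2* encode the other regulatory IRGs. *Irgm1* was at 185 and 203 FPKM in control and 169.9 and 188 FPKM in KO. *Irgm2* was at 13.0 and 14.9 FPKM in control and 13.7 and 12.4 FPKM in KO. Both overlapped between the groups, with 95% confidence intervals from -0.39 to 0.15 and from -0.47 to 0.31. The annotations of *Igtp* and *Irgm2* overlap on the same strand, and 5.16% of the words of *Igtp* and 3.00% of those of *Irgm2* occur in other genes. *Tgtp2*, an effector IRG, was at 291 and 216 FPKM in control and 216 and 254 FPKM in KO. Its close copy *Tgtp1* was at 75.2 and 63.8 FPKM in control and 55.3 and 66.8 FPKM in KO, and control 1 was the highest library for both. Of the words of *Tgtp1* 73.1%, and of those of *Tgtp2* 76.8%, occur in other genes, most of them in each other, so the split between the 2 is uncertain. *Ifi47* was at 179 and 219 FPKM in control and 202 and 248 FPKM in KO, overlapping, with an interval from -0.17 to 0.53.

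**Figure D2:**
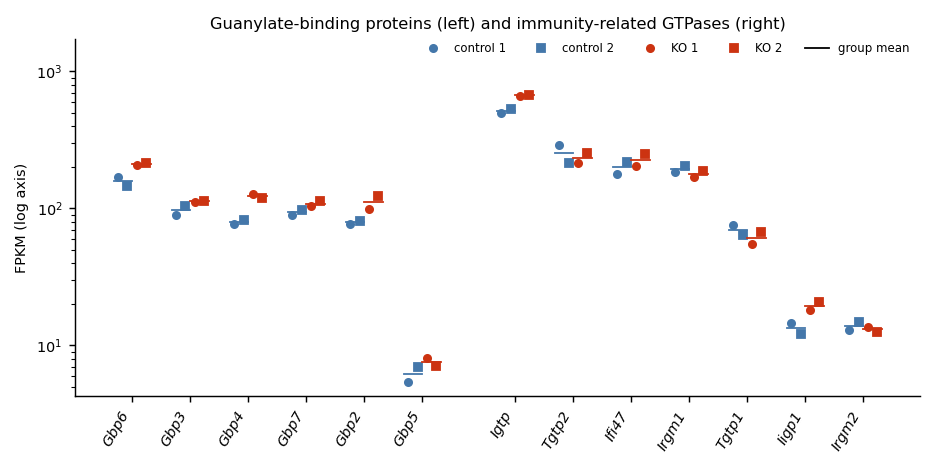
FPKM (log axis) of the 6 guanylate-binding proteins (left) and 7 immunity-related GTPases (right) in each library; blue marks control, red KO, circles replicate 1, squares replicate 2, and short lines the group means. Both red symbols lie above both blue symbols for all 6 guanylate-binding proteins, and for Igtp and Iigp1 among the 7 immunity-related GTPases.

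The promoters of *Igtp*, *Irgm2*, *Tgtp1* and *Tgtp2* are shown because they hold nearly the same interferon element while only *Igtp* was called. Each has a GAS core (TTCNNNGAA) followed, after 2 bases, by an ISRE core, and both are in capitals. Among the RefSeq promoters of 27025 genes, this arrangement occurred in 5, these 4 and *Gm12185*. The stretches lie at chr11:58199491-58199550 (*Igtp*, plus strand), chr11:58214882-58214941 (*Irgm2*, plus strand), chr11:48992295-48992354 (*Tgtp1*, minus strand) and chr11:49064254-49064313 (*Tgtp2*, minus strand).
Igtp: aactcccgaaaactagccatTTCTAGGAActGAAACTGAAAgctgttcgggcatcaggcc
Irgm2: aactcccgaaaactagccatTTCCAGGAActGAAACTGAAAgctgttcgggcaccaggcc
Tgtp1: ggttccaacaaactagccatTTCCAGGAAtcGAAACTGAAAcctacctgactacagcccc
Tgtp2: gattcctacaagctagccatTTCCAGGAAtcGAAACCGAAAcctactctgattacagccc
Over the element of 21 bases with 15 bases on either side, *Igtp* and *Irgm2* differed at 2 of 51 positions, 1 of them within the element. *Igtp* differed from *Tgtp1* at 17 and from *Tgtp2* at 16 of the 51. The log2 fold changes of the 4 genes were 0.38, -0.08, -0.19 and -0.10 in that order. The element was thus present in 1 called gene and in 3 that were not called.

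Across both GTPase families, 5 of 13 genes were called higher by limma at an unadjusted p below 0.05 (38.5%, against 8.61% of all genes). Called lower were 0, against 7.57% of all genes, and 0 passed an adjusted p of 0.05. Of the 41 other members tested, 3 were called higher and 3 lower (7.32% each, near the 8.61% and 7.57% of all genes). The difference between these shares was not tested.

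Among the IFITM and LY6 genes, 2 of 5 were called higher and all 5 log2 fold changes lay above 0. *Ifitm2* (ENSMUSG00000060591, chr7:140954837-140955987, minus strand), a transmembrane protein that blocks virus entry, was at 121 and 126 FPKM in control and 201 and 203 FPKM in KO. The groups were far apart and the libraries within each nearly equal, and the log2 fold change was 0.71 ± 0.11 (limma adjusted p = 0.0475). In all 4 fits with 1 library left out it was called at an unadjusted p below 0.05, whereas its adjusted p passed 0.05 in none of them. In its transcripts 34.9% of the 100-base words occur in other genes too, most of them in *Gm45717*, which was at 0.71 FPKM or below. Its neighbours *Ifitm1*, 11.2 kb away, and *Ifitm3*, 53.6 kb away, were low. *Ifitm1* was at 5.90 and 8.43 FPKM in control and 7.09 and 13.4 FPKM in KO. *Ifitm3* was at 5.84 and 3.97 FPKM in control and 7.92 and 5.82 FPKM in KO. Both overlapped between the groups, and their intervals, from -0.30 to 1.14 and from -0.19 to 1.03, include the value of *Ifitm2*.

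*Ly6a* (ENSMUSG00000075602, chr15:74994877-74998031, minus strand) encodes Sca-1, a surface antigen of activated T cells and of stem cells. It was at 307 and 348 FPKM in control and 461 and 534 FPKM in KO, with no overlap (0.60 ± 0.12, limma adjusted p = 0.0865), and it was called in all 4 fits with 1 library left out. *Ly6e*, 35.0 kb away, encodes a surface protein that restricts virus fusion and was the most abundant member of all. It was at 2772 and 3361 FPKM in control and 3711 and 3029 FPKM in KO, overlapping, with an interval from -0.22 to 0.49.

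The promoters of *Ifitm2* and *Ifitm3* are shown, with their ISRE cores in capitals, as neighbours of unequal level with the same kind of element. They lie at chr7:140955973-140956032 and chr7:141010700-141010759, both on the minus strand.
Ifitm2: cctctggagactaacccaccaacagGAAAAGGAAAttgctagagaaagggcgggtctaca
Ifitm3: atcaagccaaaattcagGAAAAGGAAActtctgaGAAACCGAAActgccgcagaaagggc
The match of *Ifitm2* lies 46 bases before its RefSeq start, and those of *Ifitm3* begin at bases 3 and 20 of the transcript. A GAS core of *Ifitm3* at base 14, not in capitals, overlaps the second ISRE core.

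The tested genes of 2 antiviral groups, IFIT, OAS and MX and the other antiviral effectors, showed no call. Of all genes tested, 16.2% were called in either direction, so few calls would be seen among so few genes. The difference was not tested. The IFIT, OAS and MX genes encode proteins that bind viral RNA, make the second messenger for RNA cleavage or block virus particles. Of the 9 genes, 5 passed the filter, 0 were called in either direction by limma at an unadjusted or an adjusted p below 0.05, and their median log2 fold change was -0.22. *Ifit1*, which binds viral RNA that lacks the host cap methylation, was at 145 and 135 FPKM in control and 111 and 136 FPKM in KO. The groups overlapped, and the interval ran from -0.49 to 0.13. *Ifit3*, which stabilises IFIT1, was at 29.8 and 26.8 FPKM in control and 22.8 and 25.5 FPKM in KO, with both KO libraries lower but an interval from -0.56 to 0.12. It shares 31.7% of its words with *Ifit3b*. *Ifit2* was at 15.3 and 13.6 FPKM in control and 13.4 and 17.2 FPKM in KO, overlapping. The members *Oas2*, *Oas3*, *Mx1* and *Mx2* were at 0.68 to 3.97 FPKM and were not tested, and *Ifi44*, at 0.16 to 1.31 FPKM, was not tested either.

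Of the other antiviral effectors, 10 of 11 passed the filter. By limma, 0 were called in either direction at an unadjusted or an adjusted p below 0.05, against 16.2% of all genes at the unadjusted threshold. Several were abundant. *Samhd1*, which depletes the nucleotides that retroviruses need, was at 379 and 367 FPKM in control and 403 and 397 FPKM in KO, without overlap, but the difference was small (0.10 ± 0.10, limma adjusted p = 0.67). *Rtp4* was at 206 and 171 FPKM in control and 160.2 and 196 FPKM in KO. *Ifi27* was at 254 and 221 FPKM in control and 217 and 258 FPKM in KO. Both overlapped between the groups. The log2 fold changes of the 10 ran from -0.36 in *Xaf1* to 0.13 in *Bst2*, and *Isg15*, the ubiquitin-like modifier that marks an interferon response, lay at 0.13 ± 0.12.

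**Figure D3:**
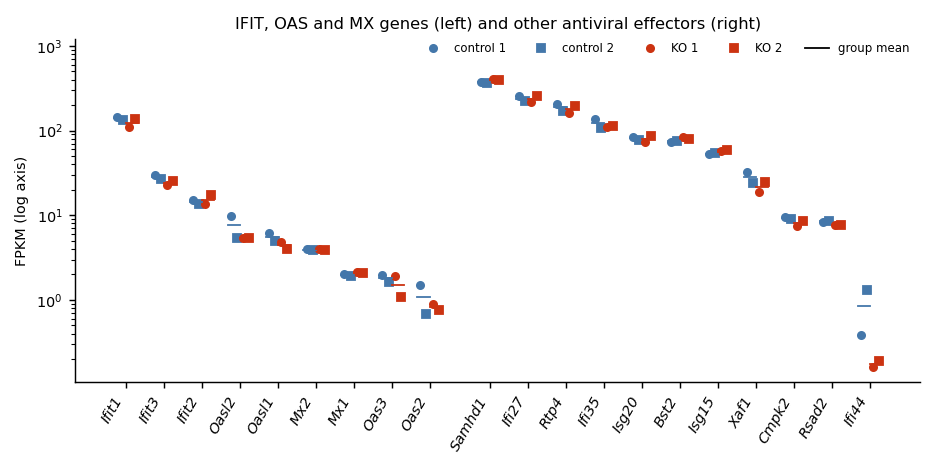
FPKM (log axis) of the 9 IFIT, OAS and MX genes (left) and the 11 other antiviral effectors (right) in each library; blue marks control, red KO, circles replicate 1, squares replicate 2, and short lines the group means. The symbols of the 2 groups lie close together for most genes, and none of the 15 tested was called, against 16.2% of all genes.

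Promoters of *Isg15*, *Ifit1* and *Ifit3* are shown as those of classical targets of type I interferon that were not called. Their ISRE cores, 3 in *Isg15* and 2 in each IFIT gene, are in capitals. The stretches lie at chr4:156200856-156200915 (*Isg15*, minus strand), chr19:34640769-34640828 (*Ifit1*, plus strand) and chr19:34583365-34583424 (*Ifit3*, plus strand).
Isg15: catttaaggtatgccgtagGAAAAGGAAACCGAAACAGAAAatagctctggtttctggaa
Ifit1: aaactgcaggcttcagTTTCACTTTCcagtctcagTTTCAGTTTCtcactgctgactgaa
Ifit3: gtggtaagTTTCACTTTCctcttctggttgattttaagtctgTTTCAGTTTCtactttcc

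Of the 10 signalling and transcription factors, 1 was called, *Stat2*, and it was lower (10.0%, against 7.57% of all genes). *Stat2* (ENSMUSG00000040033, chr10:128270559-128292849, plus strand), the STAT protein particular to the type I and type III interferon complex, was at 34.4 and 41.6 FPKM in control and 27.3 and 22.4 FPKM in KO. Both KO libraries lay below both control libraries (-0.59 ± 0.16, limma adjusted p = 0.159), and without KO 2 it was not called, at -0.46. Its partner *Irf9* was at 133 and 122 FPKM in control and 128 and 132 FPKM in KO, overlapping, with an interval from -0.23 to 0.29. The receptor chain *Ifnar1* was at 124 and 142 FPKM in control and 158 and 129 FPKM in KO, also overlapping. *Irf1*, a transcription factor induced by interferon gamma that drives GBP genes, was at 357 and 428 FPKM in control and 378 and 339 FPKM in KO, with an interval from -0.43 to 0.17. *Irf7* and *Usp18*, which amplify and dampen the type I response respectively, lay lower in both KO libraries without being called (-0.22 ± 0.14 and -0.26 ± 0.15), and the annotation of *Irf7* overlaps *Phrf1* on the opposite strand.

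Of the 6 nucleic acid sensors and editing genes, 1 was called (16.7%, near the 16.2% of all genes called in either direction). *Ddx58* (ENSMUSG00000040296, chr4:40203773-40239828, minus strand) encodes RIG-I, which senses viral RNA ends, and was at 25.6 and 32.4 FPKM in control and 23.5 and 19.6 FPKM in KO. Both KO libraries lay below both control libraries (-0.41 ± 0.17, limma adjusted p = 0.303), with an interval from -0.81 to -0.005 that ends close to 0. *Ddx58* was called with all libraries. The call was lost without control 2, KO 1 or KO 2, with log2 fold changes of -0.24, -0.53 and -0.28. *Ifih1*, which encodes MDA5, a sensor of long double-stranded RNA, was at 23.7 and 22.2 FPKM in control and 21.9 and 26.8 FPKM in KO, overlapping. *Zbp1*, a sensor of Z-form nucleic acid that can start necroptosis, was at 57.5 and 58.3 FPKM in control and 63.0 and 68.5 FPKM in KO, higher in both KO libraries without being called (0.18 ± 0.12, limma adjusted p = 0.501).

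The PARP, TRIM and nuclear body genes held 1 call in each direction. *Sp100* (ENSMUSG00000026222, chr1:85649988-85709998, plus strand), a component of PML nuclear bodies, was at 67.5 and 65.5 FPKM in control and 101 and 87.0 FPKM in KO (0.49 ± 0.12, limma adjusted p = 0.134), and without KO 1 it was not called, at 0.38. *Trim25* (ENSMUSG00000000275, chr11:88999376-89020293, plus strand), the ubiquitin ligase that activates RIG-I, was at 23.9 and 33.6 FPKM in control and 20.2 and 20.4 FPKM in KO (-0.46 ± 0.18, limma adjusted p = 0.283). Control 2 was the highest library, and the call was lost without control 2, KO 1 or KO 2, with log2 fold changes of -0.22, -0.45 and -0.47. *Parp14* was at 36.2 and 35.3 FPKM in control and 29.8 and 31.3 FPKM in KO, lower in both KO libraries, with an interval from -0.52 to 0.08.

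The promoter stretches of the called genes *Stat2* (chr10:128270251-128270310, plus strand) and *Ddx58* (chr4:40239789-40239848, minus strand) each hold an ISRE core too, in capitals, in genes called lower.
Stat2: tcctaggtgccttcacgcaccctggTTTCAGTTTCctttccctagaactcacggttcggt
Ddx58: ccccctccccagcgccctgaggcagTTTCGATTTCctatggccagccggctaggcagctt
The core of *Stat2* starts 222 bases before the RefSeq start and that of *Ddx58* at base 3 of the transcript.

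RefSeq promoters of 300 bases, 250 before the start and 50 after, were found for 44 of the 59 members. The ISRE core was in 23 of the 44 (52.3%) and in 3.99% of the promoters of 27025 genes. The GAS core was in 19 (43.2%) and in 9.55%, and both were in 10 of the 44 (22.7%) and in 0.614% of all. Among the members with a promoter, the ISRE core was in 3 of the 4 called higher, in 2 of the 3 called lower, and in 17 of the 35 not called. Of the 10 GTPase genes with a promoter, 9 held an ISRE core and 6 a GAS core. A match says only that these letters stand in the window, and its absence that they do not.

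**Figure D4:**
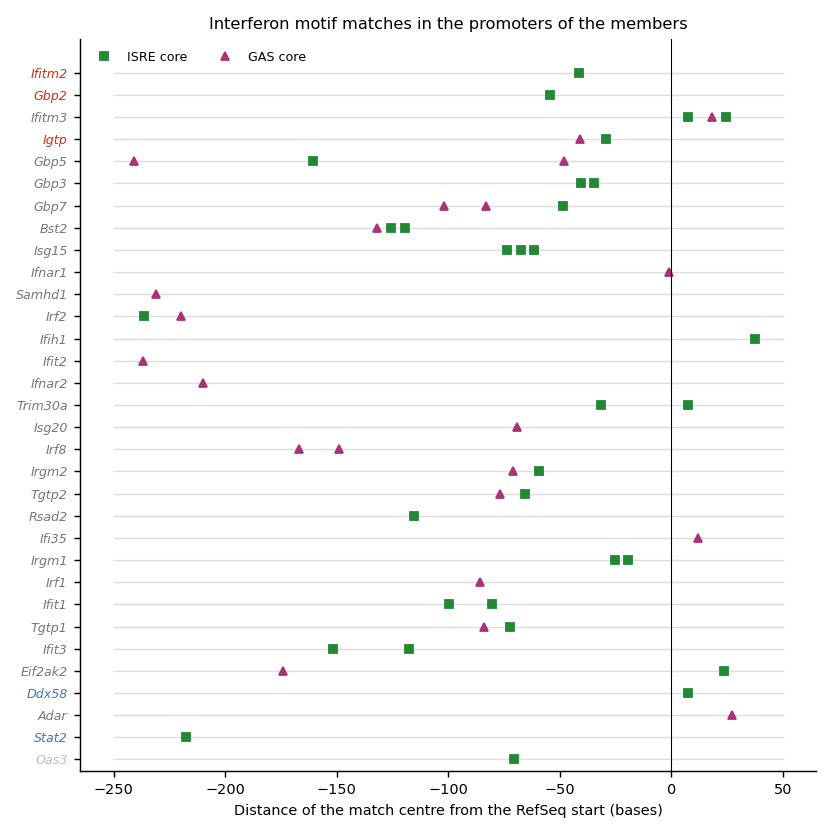
Positions of ISRE cores (green squares) and GAS cores (purple triangles) relative to the RefSeq start (x axis, bases) in members with at least 1 match, ordered from the highest to the lowest log2 fold change, with Oas3, which was not tested, at the bottom. Names in red were called higher in KO, names in blue lower, and dark grey names were not called; cores stand in genes of all 3 kinds.

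The rest of the pathway, a list of 25 genes that are not members, was set beside them. Of 24 tested, 6 were called higher and 0 lower by limma at an unadjusted p below 0.05, against 8.61% and 7.57% of all genes, and 0 passed an adjusted p of 0.05. The count of higher calls was 3 without control 1, without KO 1 or without KO 2 and 7 without control 2, and the count of lower calls rose to 2 without control 1 and to 1 without control 2 or KO 1.

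Of the 6 higher genes, 4 belong to MHC class I presentation. The list held 10 genes of this role, all tested, and the other 6 were not called. Of all genes tested, 8.61% were called higher, and the difference from this share was not tested. The class I presentation genes did not all move 1 way. Their log2 fold changes lay above 0 for 6 and below 0 for 4, from -0.25 to 0.51, with a median of 0.225. The 3 catalytic subunits of the immunoproteasome, the form of the proteasome that interferon gamma induces, were all called. *Psmb8* was at 249.9 and 286 FPKM in control and 349 and 325 FPKM in KO (0.33 ± 0.12, limma adjusted p = 0.236). *Psmb9* was at 63.6 and 73.0 FPKM in control and 91.2 and 80.0 FPKM in KO (0.32 ± 0.13, limma adjusted p = 0.292), and its annotation overlaps *Tap1* on the opposite strand. *Psmb10* was at 60.5 and 69.0 FPKM in control and 95.6 and 89.6 FPKM in KO (0.51 ± 0.12, limma adjusted p = 0.12). *Psme2*, a subunit of the activator that caps the immunoproteasome, was at 428 and 468 FPKM in control and 545 and 570.5 FPKM in KO (0.32 ± 0.11, limma adjusted p = 0.222). The groups did not overlap in any of the 4. *Psmb10* was called in all 4 fits with 1 library left out, whereas the others were called only in the fit without control 2, and were not called in a fit with no trend. Without control 1, KO 1 and KO 2 the log2 fold change was 0.23, 0.28 and 0.38 for *Psmb8*. It was 0.23, 0.23 and 0.42 for *Psmb9*, and 0.25, 0.35 and 0.28 for *Psme2*.

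The light chain of MHC class I, *B2m*, was at 10095 and 12537 FPKM in control and 10095 and 8867 FPKM in KO, overlapping and not called (-0.25 ± 0.15), but it was called lower without control 1, at -0.41. *Ifng*, the gene of interferon gamma, was at 13.59 and 10.85 FPKM in control and 12.48 and 12.84 FPKM in KO. It overlapped between the groups and was not called (0.05 ± 0.18, limma adjusted p = 0.923). The study, in contrast, reported raised interferon gamma in intestinal KO Treg cells by RNA-seq. It reported the same for the protein by flow cytometry, in cells stimulated before staining. Protein was not measured here, and the reason for the difference was not tested. The receptor chain *Ifngr1* was at 2218 and 2160.0 FPKM in control and 2357 and 2108 FPKM in KO, with an interval from -0.24 to 0.29. *Jak1*, the kinase shared by both receptors, was at 261 and 276 FPKM in control and 242 and 214 FPKM in KO, lower in both KO libraries and not called (-0.24 ± 0.11, limma adjusted p = 0.358).

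The other 2 higher genes belong to the response to cytosolic DNA. *Tmem173*, which encodes STING, was at 30.1 and 36.0 FPKM in control and 47.0 and 47.8 FPKM in KO (0.51 ± 0.14, limma adjusted p = 0.155). *Trex1*, the exonuclease that clears such DNA, was at 198 and 206 FPKM in control and 280.1 and 299 FPKM in KO (0.52 ± 0.11, limma adjusted p = 0.0855). *Trex1* lies 1.47 Mb from *Setd2* on chromosome 9, and of the 153 genes tested within 20 Mb of *Setd2*, 24.2% were called, against 16.2% of all genes tested in either direction, a difference that was not tested. *Trex1* also shares 91.7% of its 100-base words with *Atrip*, which was at 10.0 and 8.73 FPKM in control and 4.37 and 3.25 FPKM in KO, so the values of the 2 genes are uncertain. None of the 59 members lies on chromosome 9.

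**Figure D5:**
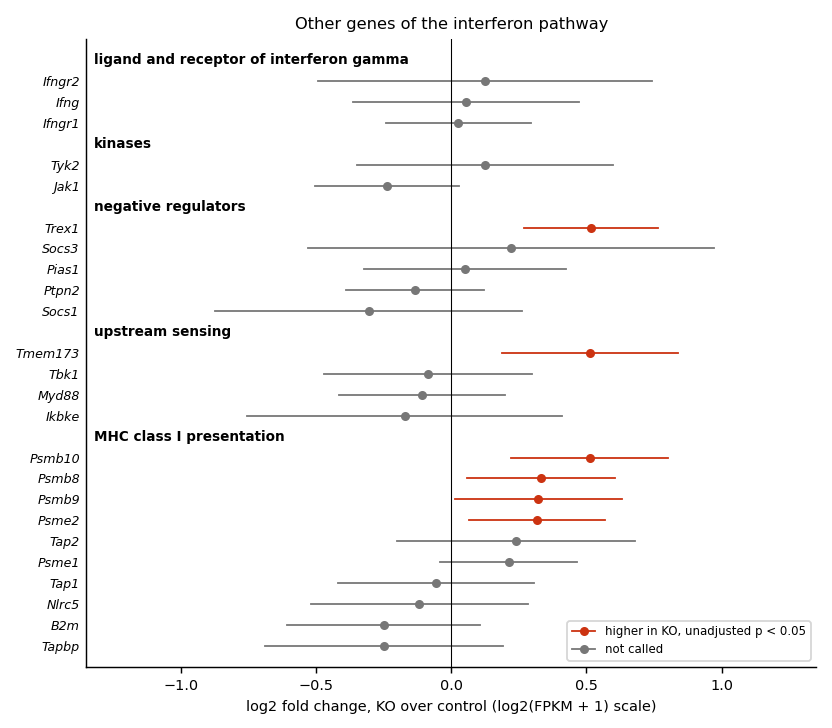
Log2 fold change (KO over control, log2(FPKM + 1) scale, x axis) of the 24 other pathway genes tested, grouped by role, with the 95% confidence interval of the limma fit as a line; red marks the 6 called higher and grey the 18 not called. The 3 immunoproteasome subunits Psmb8, Psmb9 and Psmb10 lie at 0.33, 0.32 and 0.51.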

How the data were processed

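The authors mapped paired reads of 150 bases to GRCm38 with STAR 2.5, quantified genes with RSEM 1.2 and deposited FPKM for 53379 genes. At 2172 of the 5000 highest ranks the 4 libraries held 1 value, from a step not given in the sources used here. The deposited FPKM keep no depth, so no count test or counting interval could be given, and precision is the spread between 2 pools a group.

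From these values, limma 3.58.1 in R 4.3.3 (empirical Bayes with a trend, no covariate, two-sided) was fitted to log2(FPKM + 1), a pseudocount of 1, over protein-coding genes with a mean above 5 FPKM in either group, with Benjamini-Hochberg adjustment over all 7639. The fit was tested on simulated data. Gene types and positions came from GENCODE M21, promoters from RefSeq (GRCm38.p6), with no entry for 15 members. Tables were handled in Python 3.11.15 with pandas 2.3.3.

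The members, the pathway and marker lists, and the tests were chosen with earlier results of these data known. Named members are those called at an unadjusted p below 0.05 and the 3 highest by mean FPKM in each role group. Named pathway genes are those called and the 5 highest. *Irf7*, *Usp18*, *Xaf1*, *Bst2*, *Isg15*, *Adar*, *Oasl2*, *Eif2ak2*, the pathway gene *Ifng* and neighbours or paralogs of named members were added after their values were seen. 1 marker gene and the sum of its list are not reported here. Alternatives were the pseudocount, filter, gene types, scaling, trend, a replicate block and each library left out. For the pathway list, all of them, and for the members a crossed pairing, were chosen after seeing the data.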

Additional observations from a re-analysis of the deposited data

How the results depend on the processing

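With 14 alternatives, 378 values of the 27 named members gave 343 with the same direction and side of the threshold, and 0 of the 154 values of called members changed direction. The 8 members called higher were all called, and no other member higher, under each alternative that kept all 4 libraries. *Ddx58* and *Trim25* lost their calls with no filter on low values, with all gene types, with no trend and with the replicate block, so 1 member, *Stat2*, was called lower there. The adjusted call of *Ifitm2* was kept with a pseudocount of 0.1 or 5 and with each library rescaled to a total of 1000000. With a mean FPKM of at least 1, no filter, all gene types, median-centred values, no trend or the replicate block, 0 members passed an adjusted p of 0.05 while 8 were higher at an unadjusted p below 0.05. Over all genes, adjusted calls numbered 27 with a mean of at least 1 FPKM, 0 with no filter (1170 higher and 776 lower unadjusted), 13 with all gene types and 3 with no trend, compared with 45. With no trend, 3 other pathway genes were called higher (*Tmem173*, *Trex1* and *Psmb10*). The causes were not tested.

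Leaving out 1 library gave 332 to 643 genes called higher, 312 to 604 called lower and 2 to 43 adjusted calls, the lowest of these without KO 2, except 2 adjusted calls without KO 1. It gave 5 to 8 members higher, 0 to 4 lower, 0 to 0 adjusted, and a median of -0.056 to 0.032. The pathway list gave 3 to 7 higher and 0 to 2 lower. *Gbp3*, *Ifitm1*, *Adar*, *Oasl2*, *Usp18*, *Xaf1* and *Eif2ak2* were called only in such fits or, for *Adar*, *Usp18* and *Xaf1*, also with a crossed pairing. Among the 27 named members, the log2 fold change of 9 that were not called crossed 0, with ranges of -0.036 to 0.253 for *Ifnar1*, -0.035 to 0.089 for *Irf9*, -0.259 to 0.003 for *Irf1*, -0.061 to 0.216 for *Ifih1*, -0.097 to 0.234 for *Ifit2*, -0.226 to 0.061 for *Rtp4*, -0.132 to 0.120 for *Ifi27*, -0.011 to 0.282 for *Ly6e* and -0.311 to 0.118 for *Tgtp2*.

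Same-numbered libraries deviated with r = -0.305, and the numbers were not taken as pairs. The replicate block gave 419 genes higher, 377 lower and 27 adjusted, and 4 other pathway genes higher, without *Psmb8* and *Psmb9*. The crossed pairing, chosen after seeing the data, gave 1008 higher, 983 lower and 465 adjusted calls, 8 members higher, 6 lower and 6 adjusted, and 7 pathway genes higher and 3 lower.

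Low expression limits the 5 members not tested, and depth is unknown. With only the 250 bases before the start, the ISRE core was in 43.2% and the GAS core in 34.1% of the members' promoters.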
